A study of Mus musculus with 768 samples.

Results

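The arachidonate lipoxygenases are a small family of enzymes that add oxygen to arachidonic acid, a fatty acid released from membrane lipids, and so start the synthesis of hydroxy fatty acids, lipoxins and leukotrienes. Alox15 and Alox12e are 12/15-type and 12-type enzymes of the mouse, known from macrophages and eosinophils (Alox15) and from epithelia (Alox12e), and Alox12 is the platelet-type enzyme. Alox5 makes leukotrienes in leukocytes and needs Alox5ap, the membrane protein known as FLAP, which presents the fatty acid to it and is no lipoxygenase itself. These 5 genes were followed, out of 23997 gene names in the counts. They were chosen because earlier results on the same cells had shown high Alox15 and Alox12e levels with active Notch1, so the levels that compare the genotypes are a description with no test.

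Single cells of inguinal mammary glands of C57BL/6 mice were profiled by Smart-Seq2, which reads full-length transcripts and makes each sorted cell a library of its own. In the group called N1ICD-EGFP the mice were WAP-CRE; R26-N1ICD-EGFP, so that Cre switched on the constitutively active intracellular part of Notch1 together with EGFP from the Rosa26 locus. In the control group the mice were WAP-CRE; R26-tdTomato, where the same Cre switched on only the red reporter tdTomato. Both groups share WAP-CRE, a Cre under the promoter of Wap, a whey protein gene of alveolar luminal cells in pregnancy and lactation. For both, the labels give a lactation of 3 to 4 months. Each genotype filled 1 plate of 384 wells with single cells sorted for their reporter. No animal is named, so each genotype is 1 sample: cells are not replicates, no difference has a replicate check, no p-value is given, and differences of genotype cannot be told apart from those of plate or reporter. All intervals are 95% intervals for counting error only (exact Poisson for levels, conditional binomial for folds, Clopper-Pearson for shares of cells), and as the reads carry no molecular identifiers they are not independent molecules.

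A well was kept as a cell if it held 50000 reads or more and 1000 genes or more, which left 73.7% of the N1ICD-EGFP wells (median 348469 reads) and 86.98% of the control wells (median 241888 reads). Luminal-marker cells carried at least 3 of 8 luminal markers (Epcam, Krt8, Krt18, Krt19, Krt7, Cldn3, Cldn4, Cldn7) at 20 CPM or more (reads of a gene scaled to the same total of reads in every cell) and fewer than 3 leukocyte markers. They made up 77.4% of kept N1ICD-EGFP and 90.4% of kept control cells. Leukocyte-marker cells, defined the other way round by 8 leukocyte markers such as Ptprc and Laptm5, numbered 49 in the N1ICD-EGFP and 19 in the control plate. By this rule the summed luminal markers stood at 67.96 and 85.45 CPM in leukocyte-marker cells of the N1ICD-EGFP and control plates, against 12425 and 13914 CPM in luminal-marker cells. Exactly 2 luminal markers, just under the rule, were found in 3 N1ICD-EGFP and 5 control cells. Among luminal-marker cells, 81.3% of the N1ICD-EGFP and 75.8% of the control plate carried progenitor or secretory markers (at least 3 of Kit, Elf5, Aldh1a3, Cd14, Ehf, Ltf, Csn3), and 7 N1ICD-EGFP and 56 control cells carried hormone-sensing markers (at least 3 of Prlr, Esr1, Pgr, Foxa1, Cited1, Wnt4). As a check of the genotype label, the eGFP row held 3095 reads in 93 kept N1ICD-EGFP cells, and 64 reads in 55 kept control cells, never more than 2 in one of them.

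Alox15, Alox12e and Alox12 lie side by side on the minus strand of mouse chromosome 11. In GENCODE M21 on GRCm38, the assembly behind the mm10 build of these data, Alox15 (ENSMUSG00000018924) spans 70344152 to 70352031, Alox12e (ENSMUSG00000018907) spans 70315610 to 70322628 and Alox12 (ENSMUSG00000000320) spans 70241457 to 70255353. Gaps of 21.5 kb and 60.3 kb separate them. Alox5 (ENSMUSG00000025701) lies on chromosome 6 from 116410077 to 116461178 on the minus strand. Alox5ap (ENSMUSG00000060063) lies on chromosome 5 from 149264767 to 149288153 on the plus strand, where an exon of the antisense gene Gm19719 overlaps it; whether counting used strand is not given in the sources used here.

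Because Alox15 and Alox12e gave the largest values, the likeness of their coding sequences matters for how reads are told apart. Over 1981 aligned coding bases they were 68.3% identical, and no word of 25 bases was shared between any pair of Alox15, Alox12e, Alox12 and Alox5. Their longest shared run was 16 bases, shown in capitals in the stretch around it, bases 661 to 720 of the Alox15 and 658 to 717 of the Alox12e coding sequence, counted from the start codon (GENCODE M21).
Alox15: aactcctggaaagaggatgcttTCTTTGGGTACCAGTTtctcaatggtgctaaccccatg
Alox12e: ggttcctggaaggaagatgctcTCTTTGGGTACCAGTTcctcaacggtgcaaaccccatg
Alox15 and Alox12 were 67.2% identical, and Alox12e and Alox12 66.3%, with longest shared runs of 18 and 16 bases. The shared run is shorter than a word of 25 bases. Only coding bases were compared. The untranslated parts of the exons, from which reads also come, were not.

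Alox15 and Alox12e were read mainly in luminal cells and were higher in N1ICD-EGFP luminal cells. Alox15, at 1365 CPM (1356 to 1373) in N1ICD-EGFP luminal-marker cells and 57.6 CPM (55.9 to 59.3) in control ones, was 23.7-fold higher (22.98 to 24.44). Alox12e, at 2105 CPM (2094 to 2115) in N1ICD-EGFP and 324.2 CPM (320.1 to 328.4) in control luminal-marker cells, was 6.49-fold higher (6.40 to 6.58). Alox12 was near the floor, at 8.50 CPM in N1ICD-EGFP and 4.38 CPM in control luminal-marker cells, 1.94-fold higher (1.69 to 2.22). Of the 3 members at 5 CPM or more in either plate, 2 were at least 2-fold higher and none lower, beside 9.65% of 11213 genes that were at least 2-fold higher and 10.8% that were at least 2-fold lower. Among those genes 99.9% had a lower log2 ratio than Alox15, 99.2% a lower one than Alox12e and 87.5% a lower one than Alox12, where the log2 ratio is taken after adding 1 CPM. As these genes were picked for this contrast, nothing further is read from the shares.

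**Figure D1:**
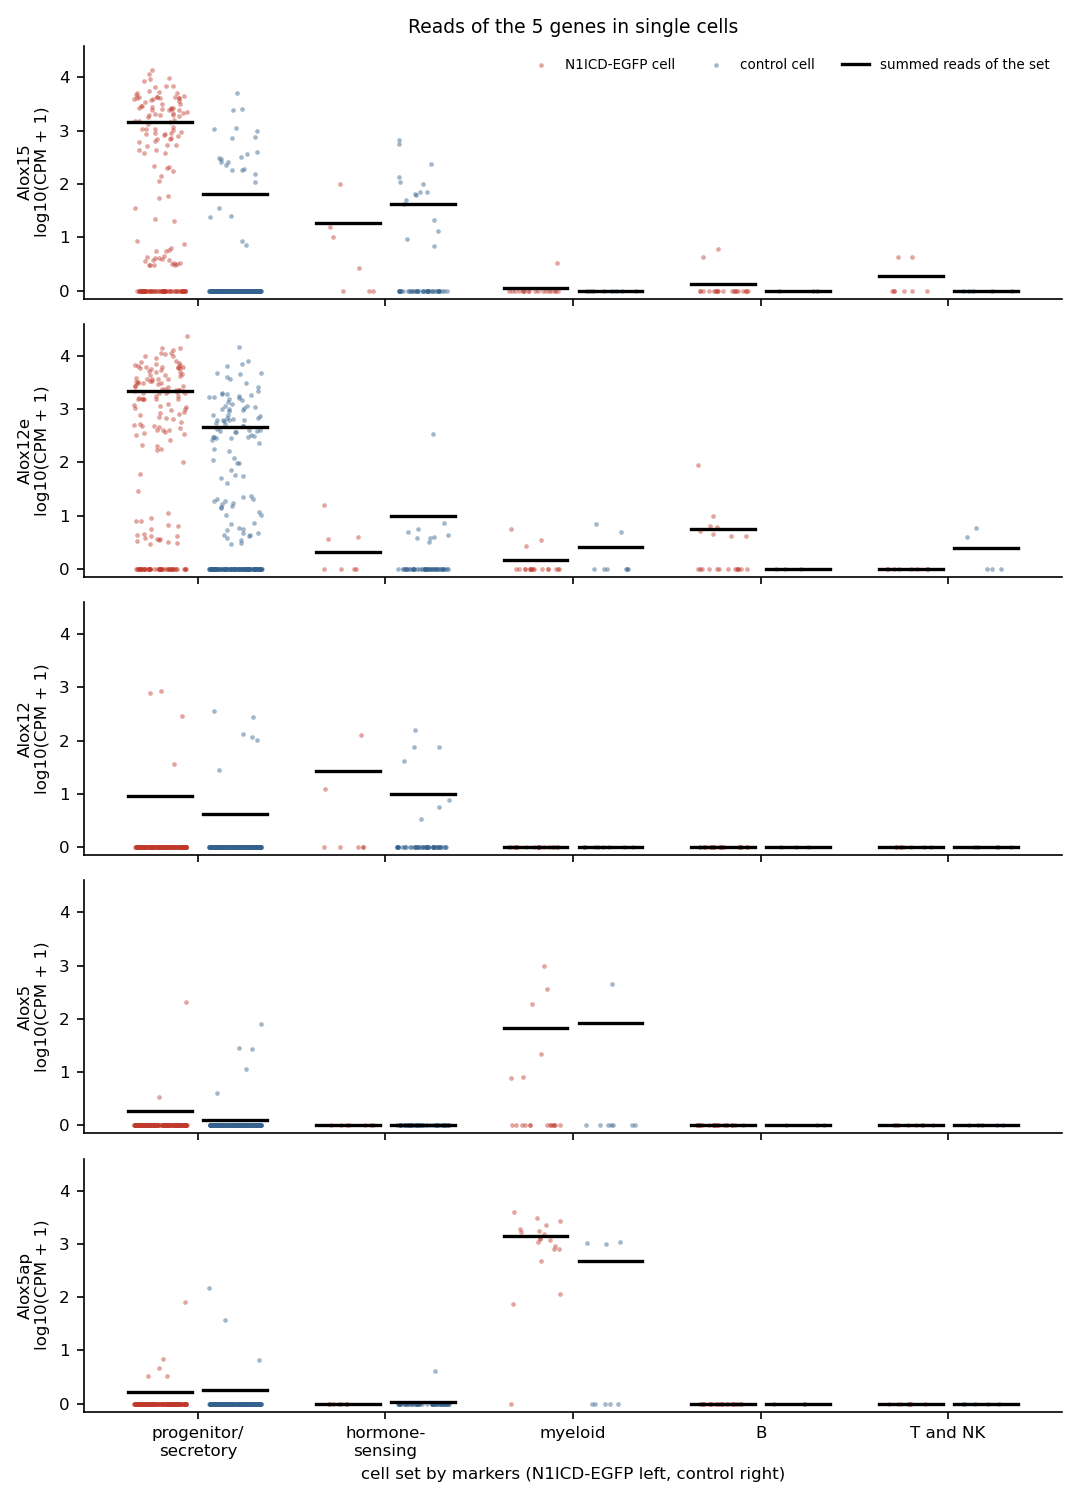
Single cells of 5 marker-defined sets (x axis, N1ICD-EGFP cells left in red, control cells right in blue) with their CPM of each gene on a log10(CPM + 1) axis; black lines give the CPM of the summed reads. Most Alox15 and Alox12e reads sit in progenitor/secretory cells (88.2% and 89.7% of those of the N1ICD-EGFP plate, 76.3% and 97.998% of those of the control plate), with lines at 1430 and 2223 CPM in N1ICD-EGFP and 64.9 and 459.3 CPM in control cells. Most Alox5ap and Alox5 reads sit in myeloid cells (95.5% and 91.4% of those of the N1ICD-EGFP plate, 82.96% and 91.2% of those of the control plate).

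The Alox15 levels of single cells differed between the plates both in how many cells had reads and in how high they reached. Alox15 had reads in 63.5% of N1ICD-EGFP luminal-marker cells, with a median of 1068 CPM over those cells and a highest cell of 15395 CPM, and in 46 control cells (15.2%), with a median of 187.8 CPM and a highest cell of 5032 CPM. The ranges overlapped, from 0 upward in both plates. Since deeper cells show a gene more often, every cell was also thinned at random to 50000 reads. Alox15 was then read in 52.1% of N1ICD-EGFP luminal-marker cells (45.2 to 58.8) and in 14.2% of control ones (10.5 to 18.7). The tenth of cells with the most Alox15 reads held 57.1% of them in the N1ICD-EGFP plate and 96.6% in the control plate. Without the highest Alox15 cell of each plate the levels were 1344 CPM in N1ICD-EGFP and 50.3 CPM in control cells, 26.7-fold apart.

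Alox12e, the 12-type enzyme of epithelia, was the more widely read of the pair in both plates. It had reads in 69.4% of N1ICD-EGFP luminal-marker cells, with a median of 1577 CPM over those cells and a highest cell of 23157 CPM, and in 38.1% of control cells, with a median of 309.8 CPM and a highest cell of 14623 CPM. After thinning, the shares were 60.7% in N1ICD-EGFP (53.9 to 67.2) and 29.1% in control cells (24.1 to 34.6). Again the single cells of both plates overlapped, and fewer N1ICD-EGFP cells were at 0. Per kb of exon the order of levels in N1ICD-EGFP luminal-marker cells was Alox12e (745 CPM per kb), Alox15 (556), Alox12 (2.08), Alox5ap (0.422) and Alox5 (0.175). In control cells the order was the same, with 114.7, 23.5, 1.07, 0.401 and 0.0430 CPM per kb.

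As a background for these shares, Alox15 and Alox12e were read in leukocyte-marker cells of the same plates, where their summed levels were below 2 CPM. After thinning, Alox15 was read in 2.04% of the 49 N1ICD-EGFP leukocyte-marker cells and in 0 of 19 control ones. For these 19 cells a rough bound is 15.8%, the share that 3 cells would make. It is not a Clopper-Pearson limit, which would be higher. Alox12e was read in 8.16% of the N1ICD-EGFP leukocyte-marker cells and in 0 of 19 control ones. Median depths were 353989 reads in N1ICD-EGFP and 203750 reads in control leukocyte-marker cells, against 348469 and 243598 reads in luminal-marker cells. Unthinned, the N1ICD-EGFP leukocyte-marker cells held 5 Alox15 reads in 5 cells and 31 Alox12e reads in 11 cells, 18 of them in 1 cell. Luminal-marker cells held 98.7% of all Alox15 reads of the N1ICD-EGFP plate and 97.6% of those of the control plate, and 99.6% of all Alox12e reads in each.

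Alox12, the platelet-type enzyme, came from single cells. It had reads in 7 N1ICD-EGFP and 13 control luminal-marker cells, and in no leukocyte-marker cell of either plate. In the N1ICD-EGFP plate 1 cell held 47.3% of the 638 luminal reads, and in the control plate the highest cell held 17.3%. Without the highest cell of each plate, Alox12 stood at 4.50 CPM in N1ICD-EGFP and 3.63 CPM in control luminal-marker cells, 1.24-fold apart.

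The plates held different shares of luminal subsets: hormone-sensing cells were 3.20% of the N1ICD-EGFP and 18.5% of the control luminal-marker cells. Within progenitor/secretory cells alone, Alox15 stood at 1430 CPM in N1ICD-EGFP and 64.9 CPM in control cells, 22.05-fold higher (21.30 to 22.83). Alox12e stood at 2223 CPM in N1ICD-EGFP and 459.3 CPM in control progenitor/secretory cells, 4.84-fold higher. Compared with all luminal-marker cells, the fold was close for Alox15 and smaller for Alox12e. Alox12 passed 2-fold here, at 8.001 CPM in N1ICD-EGFP and 3.13 CPM in control cells, but was 1.62-fold higher without the highest cell of each plate. All 3 members at 5 CPM or more were at least 2-fold higher, beside 10.7% of 10982 genes, and 8.59% of those genes were at least 2-fold lower.

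Thinned shares showed the same order in progenitor/secretory cells. Alox15 was read in 52.2% of N1ICD-EGFP and 10.9% of control cells, and Alox12e in 63.5% of N1ICD-EGFP and 37.1% of control cells. A further 34 N1ICD-EGFP luminal-marker cells carried neither the progenitor/secretory nor the hormone-sensing markers. They had 1311 CPM of Alox15 and 1897 CPM of Alox12e, close to the progenitor/secretory cells of their plate. The 6 control cells of that kind had no Alox15 read and 1 Alox12e read.

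Hormone-sensing cells gave the opposite direction, on very few cells and reads. The 7 N1ICD-EGFP hormone-sensing cells held 0 eGFP reads at a median depth of 417390 reads, whereas 81 progenitor/secretory cells of that plate held some. Whether the hormone-sensing cells carried N1ICD was not tested. Alox15 stood at 17.7 CPM in 7 N1ICD-EGFP and 41.5 CPM in 56 control hormone-sensing cells, 2.35-fold lower, and 44 of the 49 N1ICD-EGFP reads came from 1 cell. Without the highest cell of each plate Alox15 stood at 2.14 CPM in N1ICD-EGFP and 30.8 CPM in control hormone-sensing cells, 14.4-fold lower. Alox12e stood at 1.08 CPM in N1ICD-EGFP, from 3 reads, and 8.75 CPM in control hormone-sensing cells, where 93.7% of the reads came from 1 cell. Without the highest cell of each plate both Alox12e levels were under 1 CPM, at 0.739 in N1ICD-EGFP and 0.564 in control cells. Alox12 stood at 25.9 CPM in N1ICD-EGFP and 8.97 CPM in control cells. Without the highest cell of each plate both Alox12 levels were under 5 CPM, at 2.22 in N1ICD-EGFP and 3.93 in control cells. The 1 higher and 2 lower members stand beside 16.8% of genes at least 2-fold higher and 33.6% at least 2-fold lower between these sets.

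Within the control plate, where no N1ICD was switched on, Alox12e and Alox15 were spread differently over the luminal subsets. Alox12e stood at 459.3 CPM in progenitor/secretory and 8.75 CPM in hormone-sensing cells, 52.5-fold higher, and at 409 CPM in progenitor/secretory and 0.564 CPM in hormone-sensing cells without the highest cell of each, 726-fold higher. Alox15 stood at 64.9 CPM in progenitor/secretory and 41.5 CPM in hormone-sensing cells, 1.56-fold apart, while its thinned share of cells ran the other way, with 10.9% in progenitor/secretory and 25% in hormone-sensing cells (14.4 to 38.4). Alox15 was thus read in a smaller share of control progenitor/secretory than of control hormone-sensing cells. Over cells with a read, its median was 276.3 CPM in progenitor/secretory and 66.9 CPM in hormone-sensing cells. Alox12 was 2.87-fold lower, at 3.13 CPM in progenitor/secretory and 8.97 CPM in hormone-sensing cells, and 1.93-fold lower without the highest cell of each. Between these subsets 21.1% of 11180 genes were at least 2-fold higher and 17.6% at least 2-fold lower in progenitor/secretory cells.

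Most neighbouring genes on chromosome 11 were within 2-fold between the plates in luminal-marker cells, and so were most genes elsewhere. Among all 11213 genes tested, 9.65% were at least 2-fold higher and 10.8% at least 2-fold lower. Of 17 other protein-coding genes within 200 kb of Alox15 or Alox12e that the counts name, 10 were at 5 CPM or more. Of these, 1 was at least 2-fold higher in N1ICD-EGFP cells (Bcl6b, a transcriptional repressor, at 5.45 CPM in N1ICD-EGFP and 0.556 CPM in control cells, 9.80-fold higher) and none was lower. Bcl6b had reads in 3 N1ICD-EGFP and 4 control cells, and 54.8% of its N1ICD-EGFP reads were in 1 cell; without the highest cell of each plate it was under 5 CPM in both. The log2 ratios of the 10 ran from -0.17 to 2.05 with a median of 0.22, against 4.54 for Alox15, 2.70 for Alox12e and 0.05 for the median of all genes tested. Pelp1, a coregulator of steroid receptors and the nearest of them to Alox15, stood at 24.6 CPM in N1ICD-EGFP and 21.2 CPM in control cells.

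**Figure D2:**
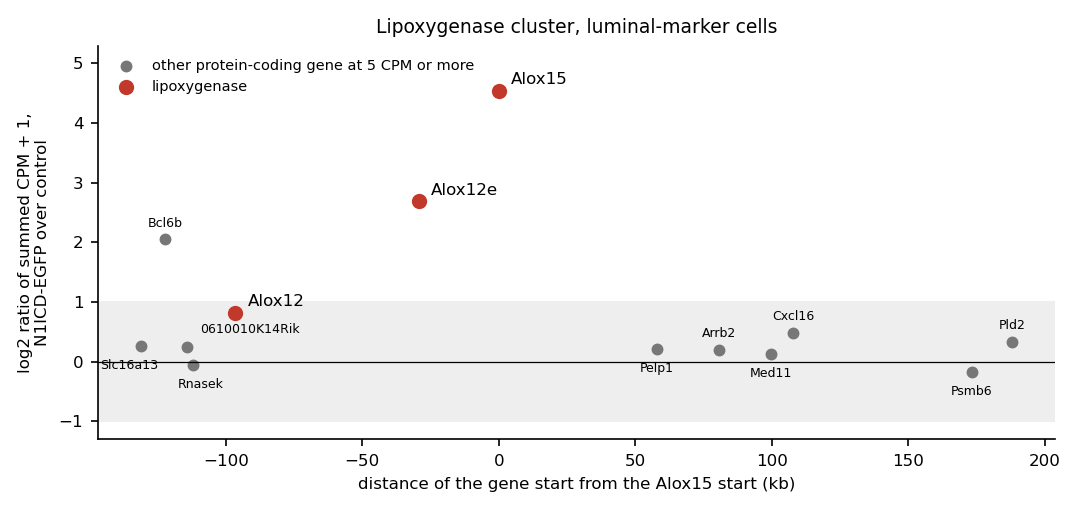
Distance of each gene start from the Alox15 start in kb (x axis) against the log2 ratio of summed CPM + 1, N1ICD-EGFP over control luminal-marker cells (y axis), for the 3 lipoxygenases (red) and the 10 other protein-coding genes at 5 CPM or more (grey); the grey band runs from -1 to 1. Alox15 at 4.54 and Alox12e at 2.70 lie above the other genes, and Bcl6b at 2.05 is the one grey point outside the band.

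Promoter windows are shown for Alox12e, which was high, and its neighbour Alox12, which was near the floor. The promoter source used here held no window for Alox15 or Alox5ap, so these were not searched. RefSeq promoter sequences on GRCm38.p6 (250 bases before to 50 after the start, minus strand) were given for Alox12e, at chr11:70322481-70322780, and Alox12, at chr11:70255321-70255620. The letters TGGGAA, the core that the Notch partner Rbpj binds, were searched on both strands and are in capitals where found.
Alox12e: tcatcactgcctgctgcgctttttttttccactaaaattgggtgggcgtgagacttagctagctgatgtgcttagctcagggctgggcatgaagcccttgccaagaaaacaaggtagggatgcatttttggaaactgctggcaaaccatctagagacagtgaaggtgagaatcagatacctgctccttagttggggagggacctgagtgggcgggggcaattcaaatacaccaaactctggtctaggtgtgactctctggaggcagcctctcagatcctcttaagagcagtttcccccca
Alox12: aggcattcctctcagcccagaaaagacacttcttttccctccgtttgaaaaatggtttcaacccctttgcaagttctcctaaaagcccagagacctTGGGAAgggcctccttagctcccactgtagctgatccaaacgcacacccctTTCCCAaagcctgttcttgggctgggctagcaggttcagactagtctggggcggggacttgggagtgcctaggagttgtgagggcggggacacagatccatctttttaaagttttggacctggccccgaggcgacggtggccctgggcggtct
TGGGAA stood in the Alox12 window at position -154 from the start, and on the other strand (printed as TTCCCA) at -103. It was not in the Alox12e window or in that of Alox5, and 25.6% of 32851 RefSeq promoters of the same length held it. The Stat6 motif, the letters TTCNNNGAA of the kind bound by other Stat factors, and CACGTG, the E-box of basic helix-loop-helix factors, were in none of the windows of Alox12e, Alox12 and Alox5, and stood in 6.95%, 8.30% and 7.15% of all promoters. A match or its absence in such a window describes these letters only.

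Alox15 and Alox12e were read together in the same N1ICD-EGFP cells. After thinning, 52.1% of N1ICD-EGFP luminal-marker cells read Alox15, 60.7% read Alox12e and 45.2% (99 cells) read both, which is 86.8% of the Alox15 cells (79.2 to 92.4) and 74.4% of the Alox12e cells. Of N1ICD-EGFP cells without Alox15, 32.4% read Alox12e. In the control plate 43 cells read Alox15, 88 read Alox12e and 22 read both, which is 51.2% of the Alox15 cells (35.5 to 66.7) and 25% of the Alox12e cells. Among control cells without Alox15, 25.5% read Alox12e. The Spearman correlation of their CPM across cells was 0.63 over all N1ICD-EGFP and 0.23 over all control luminal-marker cells, whose numbers stand above the panels of the plot of both genes. Cells of a plate share its preparation and differ in depth, so these are descriptions.

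Taken by subset, co-reading was as follows. Among control progenitor/secretory cells 21 of 25 Alox15 cells also read Alox12e (84%; 63.9 to 95.5), close to 84 of 93 in N1ICD-EGFP progenitor/secretory cells (90.3%), with intervals that overlap. Control hormone-sensing cells say little on this, since 1 of 56 read Alox12e after thinning and 0 of the 14 Alox15 cells did, while unthinned 3 of 16 Alox15 cells (18.75%) and 15% of the other cells did. Of the Alox12e cells, 74.3% of the N1ICD-EGFP and 24.7% of the control progenitor/secretory ones read Alox15. The correlation was 0.66 in N1ICD-EGFP and 0.37 in control progenitor/secretory cells.

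**Figure D3:**
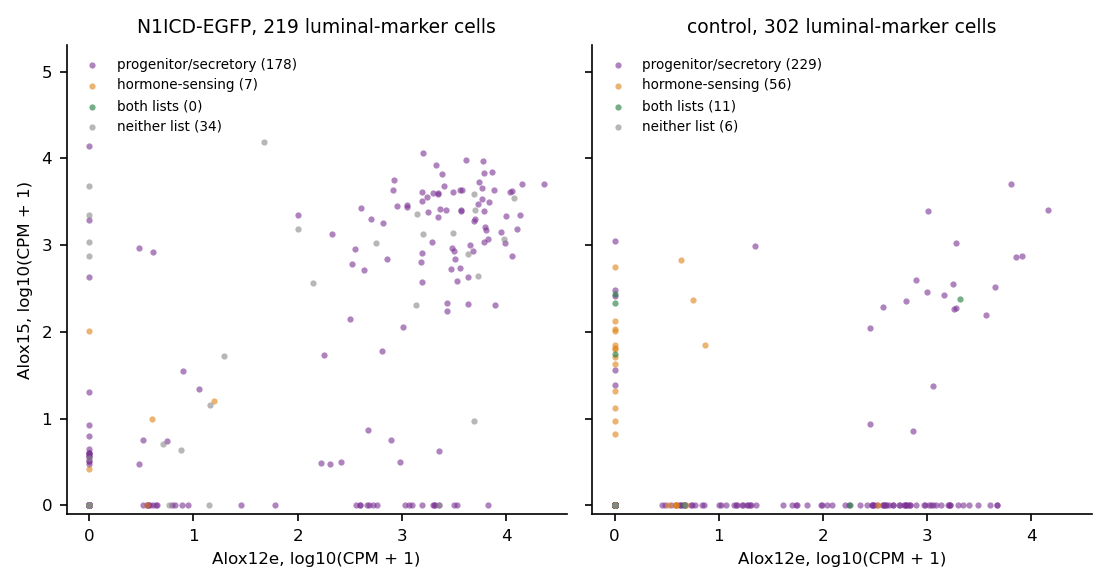
Alox12e (x axis) against Alox15 (y axis), both as log10(CPM + 1), in single luminal-marker cells of the N1ICD-EGFP plate (left) and the control plate (right), coloured by luminal subset. The N1ICD-EGFP plate has a crowd of progenitor/secretory cells high in both genes, while control hormone-sensing cells with Alox15 reads lie mostly at 0 Alox12e, 3 of 16 having a read of it.

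The balance between both enzymes varied widely from cell to cell. In 93 N1ICD-EGFP luminal-marker cells with at least 10 reads of each gene, the log2 ratio of Alox15 over Alox12e reads ran from -5.27 to 4.48 with a median of -0.86. In 18 such control cells it ran from -4.56 to 1.29 with a median of -2.39. Alox15 had more reads than Alox12e in 34 of the 93 N1ICD-EGFP cells and in 1 of the 18 control cells. Cells of both plates overlapped over most of the control range. Of the 7 N1ICD-EGFP cells with an Alox12 read, 4 read Alox15 and 4 read Alox12e, and of the 13 control cells, 4 read Alox15 and 6 read Alox12e. Those 6 were the 6 control progenitor/secretory cells with an Alox12 read (54.1 to 100%), in a subset where 44.5% of cells read Alox12e. None of the 7 control hormone-sensing Alox12 cells read Alox12e, in a subset where only 9 of 56 cells did. With so few cells this does not show that the genes exclude each other there.

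Cells with and without a lipoxygenase read differed in their medians of milk genes. N1ICD-EGFP luminal-marker cells with an Alox15 read (63.5% of them) had a median of 8.46 CPM of Csn3, the milk protein kappa-casein, and 592 CPM of Kit, a receptor of luminal progenitors. N1ICD-EGFP cells without an Alox15 read (80 cells) had medians of 3739 CPM of Csn3 and 333.8 CPM of Kit, at median depths of 359198 reads with and 338868 reads without Alox15. Csn3 was also lower with an Alox15 read in control luminal-marker cells, with medians of 3980 CPM with and 10166 CPM without. Within progenitor/secretory cells the medians of Csn3 were 274.1 CPM with and 4488 CPM without an Alox15 read in the N1ICD-EGFP plate, and 8477 CPM with and 12541 CPM without in the control plate. Control cells with an Alox12e read (38.1% of them) had a median of 11715 CPM of Ltf, the milk iron-binding protein lactoferrin, and those without had 235.4 CPM. Within control progenitor/secretory cells the medians were 14086 CPM with and 3506 CPM without. In N1ICD-EGFP luminal-marker cells the Ltf medians were 2.95 CPM with and 0 CPM without an Alox12e read. By Alox15 reads, control Ltf medians were 2088 CPM with and 2035 CPM without. Within control progenitor/secretory cells they were 17828 CPM with and 6099 CPM without an Alox15 read. Csn3, Kit and Ltf are also among the markers that define progenitor/secretory cells. Control cells with an Alox15 read (46 cells) had 16.5 CPM of Kit and those without 418 CPM, and these Alox15 cells include hormone-sensing ones, as above.

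The genes most alike to each enzyme across luminal-marker cells, by the Spearman correlation of CPM among genes read in at least 20% of the cells, differed between the plates. In the N1ICD-EGFP plate (all its luminal-marker cells, 5214 genes) the 8 most like Alox15 were Alox12e (0.63), the lipid-binding annexin Anxa1 (0.54), the galectin Lgals3 (0.51), the junction protein gene Perp (0.51), the Wnt inhibitor Nkd2 (0.48), the cyclin Ccnd1 (0.48), Lect1 (0.48) and Crip1 (0.46). The median over all those genes was 0.03, and the correlation with reads per cell was 0.10. Among the 8 most like Alox12e there were Alox15 (0.63), Anxa1 (0.51), Anxa2 (0.46), Crip1 (0.45), Lgals3 (0.41), Bbox1 (0.40) and Perp (0.40), so 5 of the 8 were the other enzyme or genes named for both.

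In the control plate (all its luminal-marker cells, 6945 genes) the highest value was lower for each enzyme. Alox15 had reads in only 46 of these control cells, so most of its values were tied, which limits its correlations in this plate. Among the 8 most like Alox15 were Crip1 (0.33), Dgat2 (0.29), Capsl (0.28), Tmem159 (0.27), Dnaja4 (0.26), Krt8 (0.26) and Ecm1 (0.26), and Alox12e came at rank 40 with 0.23. The 8 most like Alox12e were Wfdc18 (0.45), Fcgbp (0.44), Ltf (0.42), Cpe (0.37), Crip1 (0.35), Dclk1 (0.34), Muc15 (0.34) and Pdlim3 (0.34). Crip1, a LIM-domain protein, was the one gene named for both enzymes in both plates.

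Not every cell of the N1ICD-EGFP plate had reads of eGFP, so cells with and without them were compared within 1 plate. All were sorted for their reporter, and those without eGFP reads were less deep. Having no eGFP read therefore does not show that a cell lacked N1ICD. Among its luminal-marker cells 77 had at least 5 eGFP reads (median depth 414872 reads), 59.8% had none (median depth 310102 reads) and 11 had 1 to 4. Alox15 stood at 1617 CPM in cells with at least 5 eGFP reads and 1039 CPM in cells with none, 1.56-fold apart. Alox12e stood at 2233 CPM in cells with at least 5 eGFP reads and 1981 CPM in cells with none, 1.13-fold apart. Neither reached 2-fold, and both were high with and without eGFP reads: eGFP-unread cells of this plate stood far above control luminal-marker cells, at 57.6 CPM of Alox15 and 324.2 CPM of Alox12e. Alox12 stood at 6.35 CPM in cells with at least 5 eGFP reads and 11.2 CPM in cells with none, and single cells held 72.3% and 68.2% of those reads.

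None of the 3 members at 5 CPM or more was past 2-fold between cells with at least 5 eGFP reads and cells with none, beside 10.5% of 11108 genes that were at least 2-fold higher and 14.6% that were at least 2-fold lower. After thinning, Alox15 was read in 57.1% of cells with at least 5 eGFP reads and 48.9% of cells with none, and Alox12e in 71.4% and 53.4%. Within progenitor/secretory cells Alox15 was 1.41-fold and Alox12e 1.002-fold the level of cells with no eGFP read. Alox12 was lower there, at 4.85 CPM in cells with at least 5 eGFP reads, all of it from 1 cell, and 12.03 CPM in cells with none; 14.3% of genes were at least 2-fold lower and 12.7% higher in that comparison. Notch1, the gene of which N1ICD is a part, stood at 338.8 CPM in luminal-marker cells with at least 5 eGFP reads and 222.6 CPM in cells with none. Its target Hes1 stood at 742 CPM in cells with at least 5 eGFP reads and 535 CPM in cells with none. Between the plates, Notch1 stood at 274.4 CPM in N1ICD-EGFP and 211.8 CPM in control luminal-marker cells, only 1.30-fold apart. Hes1 stood at 611.6 CPM in N1ICD-EGFP and 188.9 CPM in control luminal-marker cells, 3.24-fold apart.

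**Figure D4:**
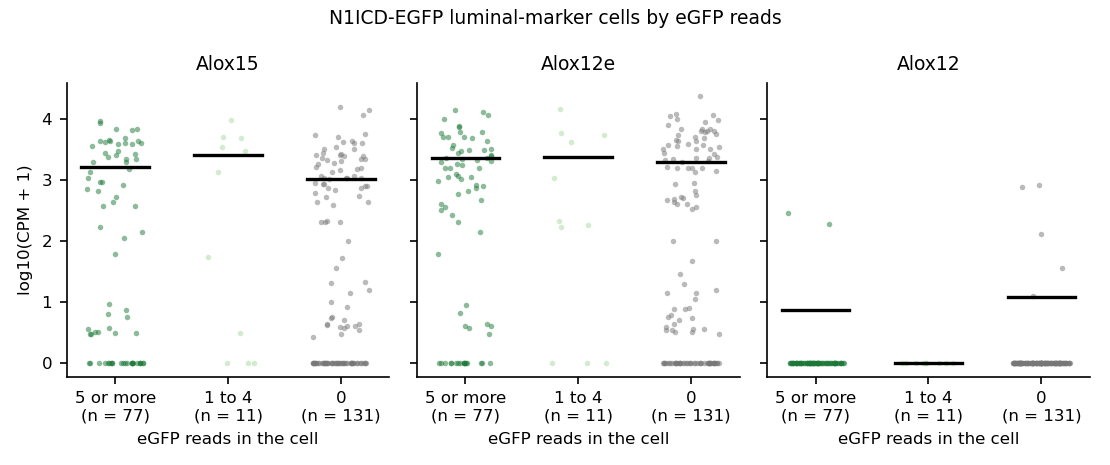
Alox15, Alox12e and Alox12 as log10(CPM + 1) (y axis) in single N1ICD-EGFP luminal-marker cells with 5 or more, 1 to 4, or 0 eGFP reads (x axis, with 77 cells, 11 cells and the other 59.8%); black lines give the CPM of summed reads. The lines for Alox15 lie at 1617, 2498 and 1039 CPM and those for Alox12e at 2233, 2322 and 1981 CPM, with cells at 0 and cells above 1000 CPM in all 3 groups.

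Alox5 and Alox5ap, the pair for leukotriene synthesis, were read in leukocytes. In luminal-marker cells both were under 1 CPM in both plates: Alox5ap stood at 0.600 CPM in N1ICD-EGFP and 0.570 CPM in control cells, and 1 cell of each plate held 88.9% and 90.5% of those reads. Alox5 stood at 0.720 CPM in N1ICD-EGFP luminal-marker cells, where 53 of 54 reads came from 1 cell, and 0.176 CPM in control ones. In leukocyte-marker cells Alox5ap stood at 719.5 CPM (707 to 732) in N1ICD-EGFP and 214.2 CPM (200.6 to 228.5) in control cells, 3.36-fold higher (3.14 to 3.60). Alox5 stood at 32.8 CPM in N1ICD-EGFP and 36.3 CPM in control leukocyte-marker cells. Of these members at 5 CPM or more, 1 of 2 was at least 2-fold higher, beside 29.9% of 10612 genes higher and 26.2% lower by that much between the small leukocyte sets.

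The leukocyte types of the plates were not the same mix. By lineage markers, N1ICD-EGFP leukocyte-marker cells were 19 myeloid, 21 B and 8 T and NK cells, and control ones were 8 myeloid, 3 B and 5 T and NK cells, with 1 and 3 cells of no single lineage. Alox5ap and Alox5 had no reads in B or T and NK cells of either plate. Markers of eosinophils and neutrophils (Prg2, Epx, S100a8, S100a9) and 3 of the 4 of mast cells (Cpa3, Mcpt4, Tpsb2) were at 0 in the leukocyte-marker cells of both plates. The fourth, Kit, stood at 0.747 CPM in N1ICD-EGFP and 6.52 CPM in control leukocyte-marker cells. The cells had been sorted on their reporter, and 1 of the 49 N1ICD-EGFP leukocyte-marker cells held an eGFP read, a single one.

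In myeloid cells Alox5ap stood at 1390 CPM (1366 to 1416) in N1ICD-EGFP and 485 CPM (454 to 517) in control cells, 2.87-fold higher (2.68 to 3.07), beside 36.2% of 9721 genes at least 2-fold higher and 27.4% lower. The plates differed in how many myeloid cells read it: 18 of 19 N1ICD-EGFP cells, between 74.9 and 4056 CPM, and 3 of 8 control cells, between 1000 and 1082 CPM. The 3 control cells lay inside the range of the N1ICD-EGFP cells. Without the highest cell of each plate the fold was 3.29. The 5 control cells without an Alox5ap read all carried C1qb, a complement gene of tissue macrophages, at 1748 to 4490 CPM. Among myeloid cells with C1qa or C1qb at 20 CPM or more, 9 of 9 N1ICD-EGFP and 1 of 6 control cells read Alox5ap, at 1332 CPM in N1ICD-EGFP and 253.25 CPM in control cells. Another 5 N1ICD-EGFP cells, 4 of them with Alox5ap, passed the myeloid rule without Csf1r, Lyz2, C1qa or C1qb at 20 CPM, on the receptor adaptors Tyrobp and Fcer1g, so the myeloid set is not one cell type. Leaving these 5 out gave 1498 CPM in the other 14 N1ICD-EGFP cells, all of which read Alox5ap.

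Alox5 itself was sparser than its partner. It stood at 973, 357.9, 186.6, 20.6, 7.22 and 6.87 CPM in 6 of 19 N1ICD-EGFP myeloid cells and at 455 CPM in 1 of 8 control ones, and each of these 7 cells also read Alox5ap. The sums were 66.2 CPM in N1ICD-EGFP and 82.2 CPM in control myeloid cells, the control value resting on that 1 cell. Of the enzymes after Alox5, Ltc4s, the leukotriene C4 synthase, stood at 55.7 CPM in N1ICD-EGFP myeloid cells (480 reads in 10 cells) and 2.11 CPM in control ones (4 reads in 1 cell). Lta4h, the leukotriene A4 hydrolase, stood at 86.3 CPM in N1ICD-EGFP and 64.8 CPM in control myeloid cells. The leukotriene receptors Ltb4r1 (105.2 CPM in N1ICD-EGFP and 14.7 CPM in control myeloid cells) and Cysltr1 (45.3 CPM in N1ICD-EGFP and 3.16 CPM in control myeloid cells) were each read in 6 N1ICD-EGFP and 1 control myeloid cells. These genes were picked after their values were seen. Of 5 measured leukotriene enzymes in myeloid cells 2 were at least 2-fold higher and 1 lower. Of 11 measured receptors of arachidonate products and related lipids 6 were higher and 3 lower. Beside them, 36.2% of all genes tested in myeloid cells were higher and 27.4% lower.

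Over all kept cells, without classes, 4 of the 5 members were at least 2-fold higher in the N1ICD-EGFP plate, beside 12.2% of 12021 genes higher and 9.11% lower. Alox5ap stood at 129.03 CPM in N1ICD-EGFP and 13.7 CPM in control cells, 9.42-fold higher, while leukocyte-marker cells made up 17.3% of kept N1ICD-EGFP and 5.69% of kept control cells. Within leukocyte-marker cells its fold was 3.36, as above. Alox5 stood at 6.42 CPM in N1ICD-EGFP and 2.11 CPM in control cells, and was under 5 CPM in both without the highest cell of each plate (3.68 and 0.186 CPM), which leaves 3 members higher. Levels over all cells of a plate cannot tell more leukocytes apart from more reads per leukocyte.

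Around the lipoxygenases, 8 lists of further genes of arachidonate metabolism and its regulation were looked up in luminal-marker cells. The other lipoxygenases, Alox12b, Aloxe3 and Alox8, were all under 5 CPM, with Aloxe3 at 1.63 CPM in N1ICD-EGFP and 3.14 CPM in control cells. Of 12 measured genes that release or activate arachidonate, 1 was at least 2-fold higher and 3 were lower, with a median log2 ratio of -0.22. For this and the next lists, 9.65% of all genes tested were at least 2-fold higher and 10.8% lower, with a median log2 ratio of 0.05. Lpcat2, a lysophospholipid acyltransferase, stood at 66.9 CPM in N1ICD-EGFP and 30.01 CPM in control cells. Pla2g4a, the cytosolic phospholipase that frees arachidonate, stood at 25.6 CPM in N1ICD-EGFP (7.76% of cells with reads) and 53.3 CPM in control cells (25.2%). Acsl4, the ligase that prefers arachidonate, stood at 16.4 CPM in N1ICD-EGFP (8.68% of cells) and 71.1 CPM in control cells (33.4%).

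Of 5 measured leukotriene enzymes none was at least 2-fold higher and 2 were lower, with a median log2 ratio of -0.48. These were the peptidases that trim cysteinyl leukotrienes, Dpep2 (3.83 CPM in N1ICD-EGFP and 29.2 CPM in control cells) and Ggt1 (12.997 CPM in N1ICD-EGFP and 51.2 CPM in control cells). Of 9 genes of the cyclooxygenase branch, 1 was higher and 1 lower, with a median of -0.13. Slco2a1, the prostaglandin transporter, stood at 13.997 CPM in N1ICD-EGFP and 124.8 CPM in control cells, and Ptgs1, a cyclooxygenase, at 5.39 CPM in N1ICD-EGFP and 2.43 CPM in control cells, with 8 cells read in each plate. Of the N1ICD-EGFP Ptgs1 reads 56.2% came from 1 cell, and without the highest cell of each plate it stood at 2.37 CPM in N1ICD-EGFP and 1.499 CPM in control cells, under the 5 CPM rule. Ptgs2, the inducible cyclooxygenase, had 0 reads in N1ICD-EGFP and 160 reads (2.17 CPM) in 3 control luminal-marker cells, 92.5% of them in 1 cell.

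The cytochrome and hydrolase branch had 2 of 8 measured genes higher and 2 lower, with a median log2 ratio of 0.38. Cyp1b1, a cytochrome that can hydroxylate arachidonate, stood at 70.7 CPM in N1ICD-EGFP (35 cells) and 0.923 CPM in control cells (2 cells), and Cyp4b1 at 80.6 CPM in N1ICD-EGFP (39 cells) and 8.94 CPM in control cells (12 cells). Among 9 measured genes of peroxide handling and ferroptosis, Gpx3, a secreted glutathione peroxidase, was lower, at 485 CPM in N1ICD-EGFP and 2465 CPM in control cells, and none was higher, with a median of 0.20. Gpx4, which reduces lipid peroxides in membranes, stood at 153.95 CPM in N1ICD-EGFP and 98.2 CPM in control cells.

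Of 4 measured receptors, 1 was higher and none lower (median 0.55): Ptger4, a prostaglandin E2 receptor, stood at 22.6 CPM in N1ICD-EGFP and 5.198 CPM in control cells, with 20 cells read in each plate. Among 7 measured genes known to act upstream of Alox15 in other cells, 1 was higher and none lower, with a median of 0.04. That gene was Tyk2, a kinase of cytokine receptors, at 77.04 CPM in N1ICD-EGFP and 29.03 CPM in control cells. Stat6, the transcription factor of interleukin-4 and interleukin-13 signalling, stood at 183.6 CPM in N1ICD-EGFP and 158.1 CPM in control cells. Its receptor genes did not reach 2-fold, with Il13ra1 at 104.55 CPM in N1ICD-EGFP and 202.5 CPM in control cells and Il4ra at 45.6 CPM in N1ICD-EGFP and 57.1 CPM in control cells. Without the highest cell of each gene in each plate, Ptgs1, Pla2g15 and the cytochrome Cyp2s1 were under 5 CPM in both plates, and Il13ra1 (96.5 CPM in N1ICD-EGFP and 194.3 CPM in control cells) and Hpgd (13.6 CPM in N1ICD-EGFP and 27.7 CPM in control cells) passed 2-fold lower. Hpgd breaks down prostaglandins, and Pla2g15 is a lysosomal phospholipase.

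**Figure D5:**
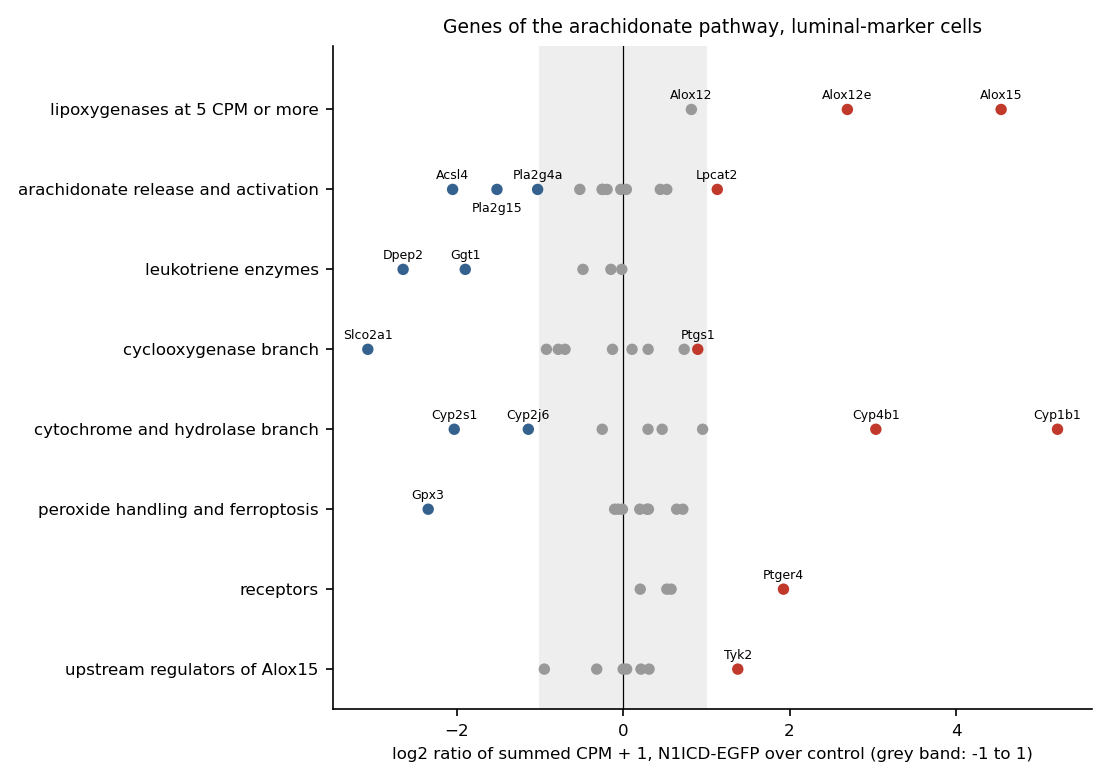
Log2 ratio of summed CPM + 1, N1ICD-EGFP over control luminal-marker cells (x axis), for the lipoxygenases and 7 lists of related genes at 5 CPM or more in either plate (y axis); red points are at least 2-fold higher, blue points at least 2-fold lower and grey points neither, by plain CPM, so Ptgs1 is red inside the grey band of -1 to 1. Alox15 at 4.54 and Cyp1b1 at 5.22 lie farthest to the right, and Slco2a1 at -3.07 farthest to the left.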

How the data were processed

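The authors deposited raw read counts per gene and cell, 24490 rows for 384 wells of each of 2 plates. Per the labels' protocols the cells were sorted singly and prepared by Smart-Seq2; per the submitters' processing notes STAR and mm10 were used. Nothing on versions, counting tool, annotation or strandedness is given in the sources used here. The counts were whole numbers in every column, and all columns were joined to their labels by plate and well.

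Rows that repeat a name, 492 in all, were summed with the first of that name. Without the eGFP row, 23997 names remained. Reads of the cells in a set were summed and scaled to CPM. A gene at 5 CPM or more in either set was called at a fold of 2 or more, and log2 ratios use a pseudocount of 1 CPM. Shares of cells were taken after thinning to 50000 reads (seed fixed). Leukocyte lineages needed 2 markers of 1 lineage and of no other, and 3 marker genes (Trbc2, Siglecf, Ly6g) were absent from the names. Doublets were not called in the main results. The members, marker classes and lists were chosen with earlier results of these data known. Named genes are the 5 members, the 8 most alike genes of Alox15 and Alox12e per plate, neighbours within 200 kb, and up to 4 genes of a list with the largest change and those at the highest level; Gpx4, Il4ra, Hpgd, Pla2g15, Cyp2s1 and the myeloid leukotriene genes were chosen after their values were seen. Some of the most alike genes are not reported here. The calls were tested on simulated Poisson reads, which hold no spread between cells beyond depth and counting and no plate difference. That simulation cannot show how calls resting on 1 cell behave. Alternatives covered scaling (TMM factors of edgeR 4.0.16, median-of-ratios), thinning, cell filters, possible doublets, well columns, marker numbers, Leiden clusters (scanpy 1.11.5, 18 clusters), thresholds, and, added after seeing the data, progenitor/secretory cells and sets without the highest cells of a gene. Other tools were Python 3.11.15, numpy 2.4.6, pandas 2.3.3, scipy 1.17.1, Biopython 1.88 and matplotlib 3.10.9.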

Additional observations from a re-analysis of the deposited data

Results flagged for a closer look

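The ratio of N1ICD-EGFP over control had the opposite sign in hormone-sensing and progenitor/secretory cells for both main enzymes. For Alox15 the log2 ratio was -1.19 in hormone-sensing cells (7 N1ICD-EGFP and 56 control cells) and 4.44 in progenitor/secretory cells, and without the highest hormone-sensing cell of each plate Alox15 was 14.4-fold lower there. For Alox12e it was -2.23 in hormone-sensing cells and 2.27 in progenitor/secretory cells, and without the highest cell of each plate both hormone-sensing levels of Alox12e were under 1 CPM. These differences were not tested, since each plate is 1 sample. The 7 N1ICD-EGFP hormone-sensing cells held 0 eGFP reads, and whether they carried N1ICD was not tested.

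Wells left out by the filter on reads and genes also held lipoxygenase reads. The levels are of summed reads, so the deeper of these wells weigh most. In the 26.3% of N1ICD-EGFP wells left out (median 665 reads, highest 301542), Alox15 stood at 544.9 CPM (23 wells) and Alox12e at 541.1 CPM (36 wells). In the 13.02% of control wells left out (median 28772 reads, highest 46314), Alox15 stood at 100.5 CPM (5 wells) and Alox12e at 174.2 CPM (19 wells). The part that free RNA has in these reads was not tested.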

How the results depend on the processing

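Each alternative changed 1 choice at a time. In luminal-marker cells the log2 ratio of N1ICD-EGFP over control was 4.54 for Alox15 and 2.70 for Alox12e. For Alox15 and Alox12e in turn it was 4.18 and 2.42 with the mean of per-cell CPM, 4.12 and 2.43 after thinning, 4.69 and 2.75 with the stricter cell filter, 4.35 and 2.41 without 67 possible doublets, 4.81 and 2.88 in well columns 1 to 12, 4.20 and 2.44 in well columns 13 to 24, 4.46 and 2.60 with Leiden clusters, and 4.44 and 2.27 in progenitor/secretory cells. It was 4.88 and 2.84 without the highest Alox15 and Alox12e cell of each plate, and 4.88 and 2.86 without the highest cell of every member. In the other 8 alternatives both ratios stayed within counting error. The number of members past 2-fold was 2 to 3 in 18 alternatives in luminal-marker cells and 3 to 5 in 12 alternatives over all kept cells. Between eGFP-read and eGFP-unread cells it was 0, and 1 (Alox12, lower) with the mean of per-cell CPM, after thinning, in well columns 13 to 24 and in progenitor/secretory cells. The share of N1ICD-EGFP luminal-marker cells with an Alox15 read, 52.1%, was 59.6% in well columns 1 to 12, 44.8% in well columns 13 to 24 and 63.5% unthinned, and that with an Alox12e read, 60.7%, was 69.4% unthinned. The share of N1ICD-EGFP leukocyte-marker cells with an Alox5ap read, 38.8%, was 79.2% with the stricter filter, which keeps 24 of the 49 cells. The share of Alox15 cells that read Alox12e stayed between 83.5% and 90.3% in 12 alternatives. The log2 ratio of Alox12 ran from -0.52 in well columns 1 to 12 to 1.87 in well columns 13 to 24. That of Alox5 between eGFP-read and eGFP-unread luminal-marker cells, 1.41 from 54 reads, turned to -0.083 in well columns 13 to 24. The causes were not tested.

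No paired analysis was possible because each genotype is 1 plate and replicate numbers only name its wells, and no replicate was left out for the same reason. Alox12, Alox5 and Alox5ap in luminal-marker cells rest on 2 to 13 cells with reads a plate. In hormone-sensing cells Alox15 stayed lower without the highest cell of each plate. Alox12e and Alox12 were then under 5 CPM in both plates, so no direction is read from them.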
